A study of Mus musculus with 4 samples.

Results

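The 10 genes examined here encode enzymes and a transporter that make glucose or build and break down glycogen: G6pc, G6pc3, Slc37a4, Fbp1, Ugp2, Gys1, Gys2, Gbe1, Pygb and Pygl. They were chosen by gene symbol, and each matched 1 of the 54838 gene rows in the deposited files. RNA was sequenced from 4 samples of Hepa1-6, an established mouse hepatoma line labelled as hepatocellular carcinoma cells of liver. The 2 NC samples were labelled wild type for Acvr2a and the 2 KO samples knockout for Acvr2a, the gene of an activin receptor; no treatment, time or other allele was given for either group. The series' design text calls the KO cells subclones but does not say whether KO 1 and KO 2 are separate subclones, how the gene was altered, or what the NC cells received. Nothing says that the samples of a group came from separate cultures, so the spread between these samples may be technical. The p-values of the edgeR test rest on that spread. For each gene its estimate is drawn strongly towards that of the other genes tested (prior degrees of freedom 25.8).

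In liver, gluconeogenesis ends when fructose bisphosphatase and then glucose-6-phosphatase remove phosphates from sugar intermediates, the last step inside the endoplasmic reticulum, where the transporter Slc37a4 delivers glucose 6-phosphate. Glycogen is built from UDP-glucose by glycogen synthase and a branching enzyme, and phosphorylase releases its glucose units again. Several of these steps have one gene that is used mainly in liver and another that is used in many tissues. G6pc, Gys2 and Pygl are the liver forms, and G6pc3, Gys1 and Pygb are forms made more widely.

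Library totals were between 11597923 and 13910582 counts. Acvr2a itself had counts of 81 (NC 1), 108 (NC 2), 75 (KO 1) and 97 (KO 2), a log2 fold change of -0.21 (SE 0.20; edgeR, adjusted p = 0.433), so its RNA total did not separate the groups, and group names follow the labels. Of 13 hepatocyte markers 12 had a count; Alb, the serum albumin gene, was at 473 to 713 TPM (a transcript level the authors scaled by length), while Cps1 had 0 counts in each library and Ttr at most 1. Summed leukocyte markers were at 0.71 to 1.96 TPM (6 of 9 with a count, Cd3e and Cd8a among those at 0) and endothelial markers at 0.15 to 0.48 TPM (3 of 6, Cdh5, Tek and Lyve1 at 0). Summed cholangiocyte markers (4 of 4) were at 77.5 and 92.2 TPM in NC and 121.2 and 113.5 TPM in KO, fibroblast and stellate markers (5 of 7, Col3a1 and Lrat at 0) at 1.60 and 1.68 against 5.05 and 5.20 TPM, and hepatocyte markers at 1165 and 1107 against 1371 and 1406 TPM. These sums moved with the groups, but not every marker did: of the 9 hepatocyte markers tested, 2 were higher (Alb and Trf) and 3 lower (Hnf4a, Afp and Fgb), with a median log2 fold change of -0.085, and of the 4 cholangiocyte markers 3 were higher and Sox9 was lower. The fibroblast and stellate sum was mostly Des, at 1.44 and 1.59 TPM in NC and 4.37 and 4.57 TPM in KO. Col1a1 was at 0.10 and 0.07 TPM in NC and 0.59 TPM in each KO library. Col1a2, Pdgfrb and Acta2 stayed at 0.06 TPM or less. The part of these markers in the results below was not tested. Red cell markers (3 of 4, Hbb-bt at 0) were at 114.2 to 130.2 TPM, nearly all from Hba-a1 and Hba-a2.

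Of the 10 genes, 3 had no count in any library, Pygl had too few to be tested, and 6 were tested. Gys1, Gbe1 and Pygb were higher in KO past an adjusted p of 0.05 (edgeR's quasi-likelihood test, Benjamini-Hochberg adjustment over 12510 genes), and 0 were lower. Over all genes tested, 37.9% passed in either direction, 19.7% higher and 18.2% lower, and 3 of 6 is to be read beside that share. The median log2 fold change of the 6 was 0.10, against -0.0037 over all genes tested. G6pc3, Slc37a4 and Ugp2 did not pass. Both KO libraries lay above both NC libraries for 3 of the 6 and below them for 1 (G6pc3). Over all genes tested the groups did not overlap for 69.4%, with KO above for 34.8% and below for 34.7%. In these bulk samples fewer cells expressing a gene and less RNA per cell cannot be told apart.

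The liver forms had few counts or none. G6pc, which encodes the catalytic subunit of liver and kidney glucose-6-phosphatase (ENSMUSG00000078650.2; chromosome 11, 101367561 to 101377903, plus strand of GRCm38), had a count of 0 in each of the 4 libraries. Gys2, the liver glycogen synthase gene (ENSMUSG00000030244.7; chromosome 6, 142422613 to 142473109, minus strand), and Fbp1, the liver fructose-1,6-bisphosphatase gene (ENSMUSG00000069805.10; chromosome 13, 62864753 to 62888282, minus strand), also had 0 in each. No library showed a read of these 3 genes. A count of 0 allows up to 3 counts, which is 0.259 CPM (the count scaled to the library's total, here without TMM factors) in NC 1, the shallowest library, and 0.216 in NC 2, the deepest. Per length that limit was 0.111 to 0.129 TPM for G6pc, 0.194 to 0.224 TPM for Gys2 and 0.352 to 0.405 TPM for Fbp1. Such limits cover counting error only. No fold change between the groups can be given for these genes.

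Pygl, the liver glycogen phosphorylase gene (ENSMUSG00000021069.17; chromosome 12, 70190811 to 70231488, minus strand), had no count in NC 1, 2 counts in NC 2, and 7 and 5 in the KO libraries. Both KO libraries were above both NC libraries, at a level close to the detection limit. The share of genes with counts this low whose groups separate was not counted. The ratio of KO to NC counts over library totals was 5.79 (95% exact Clopper-Pearson interval from counting 1.29 to 53.3). That ratio pools the libraries of each group, and the interval leaves out the spread between replicates, so it does not test the groups. The gene was left out of the fit by the filter on low counts, and in the fit without that filter it did not pass (edgeR, adjusted p = 0.159).

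The other forms made up nearly all the transcripts of these pairs. Gys1 took 100% of the summed TPM of Gys1 and Gys2 in each library, and G6pc3 took 100% of that of G6pc and G6pc3. Of the summed TPM of Pygb and Pygl, Pygb took 100% in NC 1, 99.9% in NC 2, 99.6% and 99.7% in the KO libraries. The KO shares of Pygb were lower in both libraries, by less than 1 percentage point, and 2 against 2 samples cannot give an exact two-sided permutation p below 0.333.

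Ordered by TPM averaged over the 4 libraries, Ugp2 came first at 122.1, then G6pc3 at 80.3, Pygb at 46.3, Gys1 at 42.4, Slc37a4 at 13.5, Gbe1 at 1.80 and Pygl at 0.115. The neighbours Pygb and Gys1 overlapped across the libraries, with Pygb at 35.3 to 53.9 TPM and Gys1 at 34.6 to 48.9 TPM. Within each library Pygb was above Gys1, with a ratio of Gys1 to Pygb of 0.889 to 0.979. No other neighbours in this order overlapped. The branching enzyme gene was the lowest of the detected synthesis genes, and the TPM of the synthase gene Gys1 was 19.5 to 43.7 times that of Gbe1 in the same library.

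**Figure D1:**
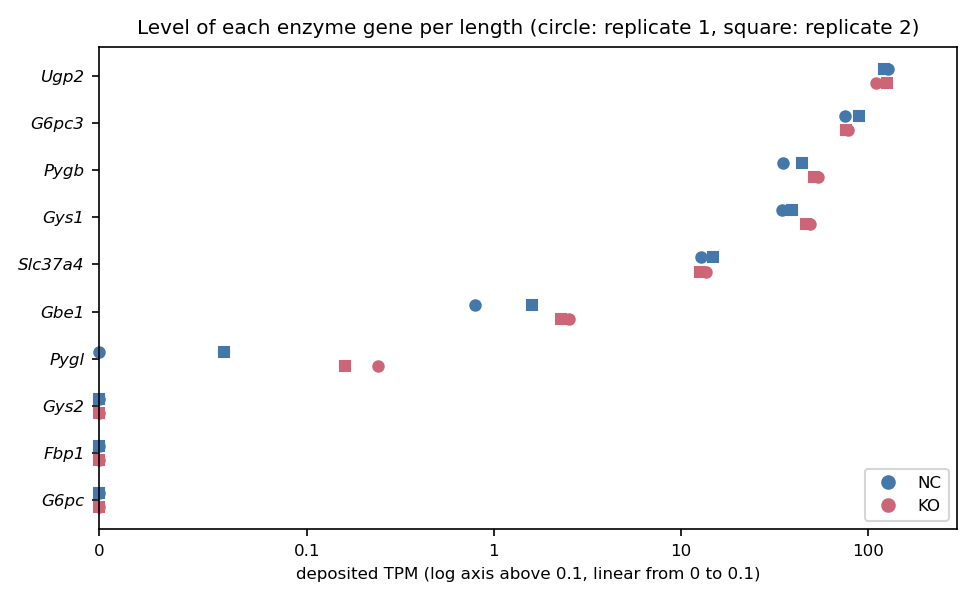
Deposited TPM of each of the 10 genes in each library, on an axis that is logarithmic above 0.1 and linear below. Blue is NC, red is KO, circles are replicate 1 and squares replicate 2. G6pc, Fbp1 and Gys2 sit at 0 in all 4 libraries, and Ugp2 is highest at 110.1 to 128.4 TPM.

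Glycogen is built from UDP-glucose, and Ugp2, the UDP-glucose pyrophosphorylase gene (ENSMUSG00000001891.16; chromosome 11, 21321138 to 21371201, minus strand), supplies it. Its level was 264.0 and 236.6 CPM for NC 1 and NC 2, against 200.8 and 244.0 CPM for KO 1 and KO 2. The groups overlapped, since KO 2 lay between the NC libraries. The log2 fold change was -0.17 (SE 0.10, 95% interval -0.37 to 0.033; edgeR, adjusted p = 0.182). Without KO 2 it was -0.32 and passed (edgeR, adjusted p = 0.0142), and without KO 1 it was -0.036. An exon of Ugp2 overlaps the non-coding gene Gm12043 on the other strand.

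Gys1 encodes the glycogen synthase of muscle and most other tissues (ENSMUSG00000003865.16; chromosome 7, 45434844 to 45456619, plus strand). NC 1 and NC 2 were at 110.7 and 111.1 CPM, KO 1 and KO 2 at 140.2 and 139.0 CPM. In CPM the libraries of each group were close together and the groups lay apart. In TPM the NC libraries were less close, at 34.6 and 39.5 for NC 1 and NC 2, against 48.9 and 46.7 for KO 1 and KO 2. Gys1 rose 1.26-fold, from a mean CPM of 110.9 ± 0.23 to 139.6 ± 0.87 (n = 2 in each group, SD), which edgeR put at 0.33 on the log2 scale (SE 0.09, 95% interval 0.14 to 0.52; edgeR, adjusted p = 0.00516). The call was lost in the 3 fits on TPM, where the log2 fold change was 0.36 to 0.37 (limma, adjusted p = 0.0720 to 0.152). The highest of these is from the fit without a filter. In that fit 0 of 20640 genes passed, so no call of any gene could be kept there. Exons of Gys1 overlap those of Ruvbl2 on the other strand, sharing 290 identical bases. Ruvbl2 had a mean CPM of 102.5 ± 0.50 with Acvr2a wild type and 88.3 ± 9.72 with knockout (n = 2 in each group, SD), and its log2 fold change was -0.21 (edgeR, adjusted p = 0.0793).

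Gbe1 encodes the branching enzyme, which adds the side branches of glycogen (ENSMUSG00000022707.16; chromosome 16, 70313949 to 70569716, plus strand). NC 1 and NC 2 had 22 and 54 counts, and each KO library had 76. In CPM this was 1.94, 3.90, 5.77 and 5.63. Both KO libraries were above both NC libraries, but the NC libraries differed from each other by 1.01 on the log2 scale, about as much as the group means did (1.05). Gbe1 rose from a mean CPM of 2.92 ± 1.39 to 5.70 ± 0.10 (n = 2 in each group, SD), with a fitted log2 difference of 0.94, or 1.91-fold (SE 0.29, 95% interval 0.35 to 1.52; edgeR, adjusted p = 0.0109). Without NC 1 it was 0.54 (edgeR, adjusted p = 0.185) and without NC 2 it was 1.55. The call was also lost with DESeq2 (adjusted p = 0.115) and in the fits on TPM (limma, adjusted p = 0.0616 to 0.238).

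Pygb, the phosphorylase gene first described in brain, encodes an enzyme that releases glucose 1-phosphate from glycogen (ENSMUSG00000033059.7; chromosome 2, 150786735 to 150831758, plus strand). NC 1 and NC 2 were at 106.3 and 113.8 CPM, KO 1 and KO 2 at 144.9 and 131.3 CPM. The groups did not overlap, and KO 1 was the highest library. Pygb rose 1.25-fold, from a mean CPM of 110.03 ± 5.34 to 138.1 ± 9.64 (n = 2 in each group, SD), with a fitted log2 difference of 0.33 (SE 0.09, 95% interval 0.13 to 0.52; edgeR, adjusted p = 0.00729). The call was lost without NC 1 (0.27; edgeR, adjusted p = 0.0996), without KO 1 (0.25; edgeR, adjusted p = 0.0533) and in the fits on TPM (limma, lowest adjusted p = 0.0737).

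The synthase and phosphorylase genes were also compared within each library. The ratio of Gys1 to Pygb in TPM was 0.979 and 0.889 for NC 1 and NC 2, and 0.907 and 0.903 for KO 1 and KO 2. The groups overlapped in this ratio. The ratio of Ugp2 to Gys1 was 3.71 and 3.10 in NC and 2.25 and 2.73 in KO, so both KO libraries were below both NC libraries. Ugp2 alone overlapped between the groups in TPM, while Gys1 alone did not. The ratio of Gys1 to Gbe1 was also lower in KO, at 43.7 and 24.7 in NC and 19.5 and 20.4 in KO. How often ratios of gene pairs separate these groups was not counted. Single genes did so in CPM for 69.4% of those tested.

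**Figure D2:**
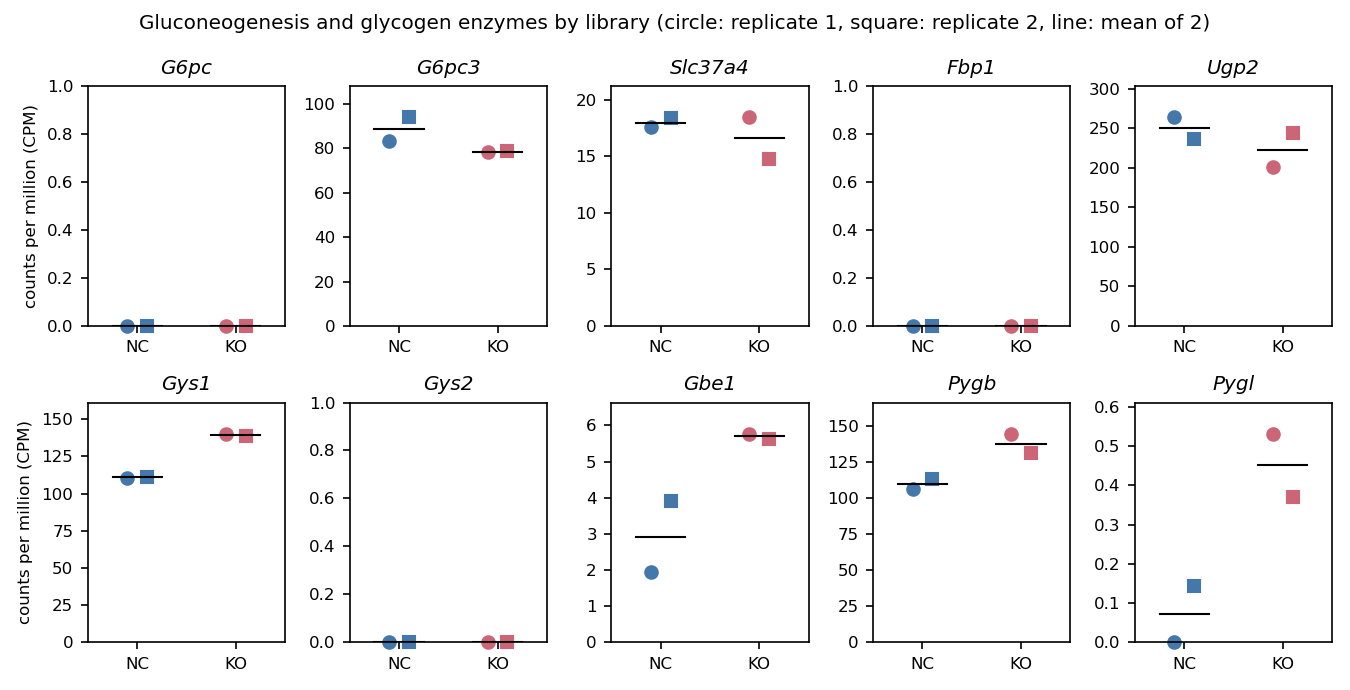
CPM of each of the 10 genes, with 1 panel per gene, its own scale starting at 0, and a line at the mean of the 2 libraries. Blue is NC, red is KO, circles are replicate 1 and squares replicate 2. For Gys1, Gbe1 and Pygb both KO libraries lie above both NC libraries, with NC 1 the lowest for Gbe1 at 1.94 CPM.

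Glucose 6-phosphate is hydrolysed by G6pc3, the widely made catalytic subunit (ENSMUSG00000034793.15; chromosome 11, 102189620 to 102194081, plus strand). NC 1 and NC 2 were at 83.1 and 94.0 CPM, KO 1 and KO 2 at 78.4 and 78.6 CPM. Both KO libraries were below both NC libraries in CPM, while in TPM the groups overlapped. The log2 fold change was -0.18 (SE 0.10, 95% interval -0.37 to 0.020; edgeR, adjusted p = 0.151), and the gene did not pass.

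Slc37a4, the transporter that brings glucose 6-phosphate to these enzymes (ENSMUSG00000032114.9; chromosome 9, 44396852 to 44402968, plus strand), was at 17.6 and 18.3 CPM for NC 1 and NC 2, and at 18.4 and 14.7 CPM for KO 1 and KO 2. The groups overlapped, with KO 1 the highest and KO 2 the lowest library. The log2 fold change was -0.12 (SE 0.14, 95% interval -0.41 to 0.18; edgeR, adjusted p = 0.555), and it was 0.034 without KO 2. In TPM, G6pc3 was at 5.78 to 6.05 times the level of Slc37a4 in each library.

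**Figure D3:**
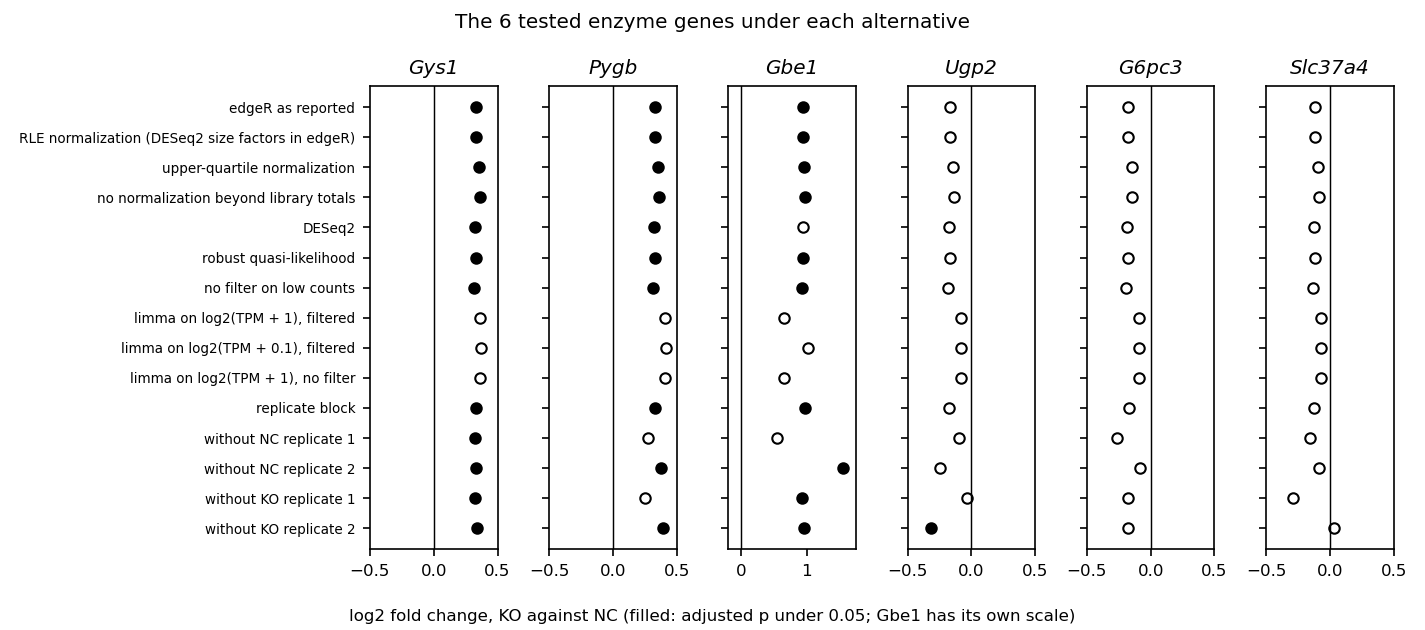
Log2 fold change of the 6 tested genes as reported and under 14 alternatives, with filled points where the adjusted p was under 0.05 and a scale of its own for Gbe1. Gys1 stays between 0.32 and 0.37, whereas Gbe1 runs from 0.54 without NC 1 to 1.55 without NC 2.

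The deposited tables also give the mean transcript length of each gene, weighted by the abundance of its transcripts, which moves when the mix of annotated transcripts moves. For Gys1 it was 3647, 3381, 3565 and 3540 bases (NC 1, NC 2, KO 1, KO 2). For Pygb it was 3442, 3102, 3358 and 3055 bases in the same order, and for Slc37a4 it was 1690, 1616, 1811 and 1525. The groups overlapped for these 3 genes and for Gbe1. Both KO libraries had shorter means than both NC libraries for Ugp2, at 2426 and 2401 against 2354 and 2367 bases, and for G6pc3, at 1403 and 1407 against 1397 and 1383. These last differences spanned 3.06% and 1.70% of the length. The share of all genes whose groups separate in length was not counted, so no change in the mix of transcripts is read from them.

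Promoter stretches are shown for the 3 genes that were higher in KO, because they moved in the same direction. Of the 10 genes 9 matched RefSeq's promoter table (GRCm38.p6), and the stretches are the bases of the 250 before the RefSeq start that lie in no annotated exon, all on the plus strand, 5′ to 3′. Capitals mark CCAAT, the core of the CCAAT box, and ACGTG or GCGTG, the core bound by hypoxia-inducible factors, on either strand.
Gys1, chr7:45434710-45434838: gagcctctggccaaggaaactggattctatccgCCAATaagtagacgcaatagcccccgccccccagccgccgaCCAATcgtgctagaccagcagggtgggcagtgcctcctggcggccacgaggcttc
Gbe1, chr16:70313699-70313948: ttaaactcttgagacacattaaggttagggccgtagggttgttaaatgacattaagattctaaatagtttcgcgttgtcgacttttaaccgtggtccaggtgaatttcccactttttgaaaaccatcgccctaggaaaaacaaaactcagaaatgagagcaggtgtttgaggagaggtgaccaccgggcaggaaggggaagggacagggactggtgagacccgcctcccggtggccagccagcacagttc
Pygb, chr2:150786546-150786734: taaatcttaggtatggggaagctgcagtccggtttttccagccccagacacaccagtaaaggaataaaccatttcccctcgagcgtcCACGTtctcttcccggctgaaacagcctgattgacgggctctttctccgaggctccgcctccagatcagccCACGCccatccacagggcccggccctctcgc

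The 3 stretches shared none of these motifs. In its full window of 250 bases Gys1 had 4 CCAAT matches, 2 of them in the stretch shown, and 0 of ACGTG and GCGTG. That window also holds exonic bases of Ruvbl2, which lies on the other strand, so its matches cannot be assigned to Gys1 alone. At least 1 CCAAT was found in 33.8% and 4 or more in 0.84% of all 32851 promoter windows of this length. Pygb had 1 ACGTG and 1 GCGTG, motifs held by 16.6% and 28.2% of all windows, and Gbe1 had no match to any of the 3 motifs. Of the genes that did not pass, G6pc3 had 4 ACGTG matches, where a palindromic CACGTG is counted on both strands, and 0.502% of all windows had 4 or more. Ugp2 had 5 GCGTG matches in 1 of its 2 windows, and 0.846% of all windows had 4 or more. The share with 5 or more was not counted. These are the highest counts among 12 windows searched for 3 motifs, so the small shares are those of picked extremes. Pygl had 1 ACGTG and 1 GCGTG, as Pygb did, G6pc had 2 CCAAT, and Slc37a4 had no match. A match is a description of the letters only.

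The other genes of these pathways were read from 5 lists holding 56 genes, of which 44 were tested. In all, 14 were higher, 10 were lower and 20 did not pass, beside the background shares of 19.7% and 18.2%. Their median log2 fold change was 0.073. The counts for each list below are small and are to be read beside the same background shares. Differences between the lists were not tested.

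Pcx and Pck2, which act at the start of gluconeogenesis, moved in opposite directions; they were 2 of the 5 genes of that list, and the others were not tested. Pcx, the pyruvate carboxylase gene whose enzyme makes oxaloacetate in mitochondria, had 111 counts in NC 1, 157 in NC 2 and 242 in each KO library. It rose by 0.78 on the log2 scale (SE 0.15; edgeR, adjusted p = 0.000195). Pck2, the mitochondrial phosphoenolpyruvate carboxykinase gene, fell from a mean CPM of 61.3 ± 1.69 to 43.8 ± 0.93 (n = 2 in each group, SD), which is -0.48 on the log2 scale (SE 0.10; edgeR, adjusted p = 0.000338), a call lost in the fits on TPM (limma, adjusted p = 0.0723 to 0.148). The cytosolic form Pck1, the one used for gluconeogenesis in liver of mice, had 1 count in KO 1 and 0 in the other libraries. Fbp2, the muscle fructose bisphosphatase gene, had 0 counts, and G6pc2 had 2 in NC 1 only.

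Among the other glycogen enzymes and glycogen-binding proteins 8 of 10 were tested, 5 were higher and 0 lower, with a median log2 fold change of 0.30. Pgm1, the phosphoglucomutase gene whose enzyme links glucose 1-phosphate with glucose 6-phosphate, rose from a mean CPM of 104.5 ± 5.83 to 143.8 ± 0.59 (n = 2 in each group, SD), which is 0.46 on the log2 scale (SE 0.09; edgeR, adjusted p = 0.000294). Stbd1, which encodes a glycogen-binding protein, had 62 and 73 counts with wild type and 120 and 117 with knockout, a log2 fold change of 0.73 (SE 0.20; edgeR, adjusted p = 0.00495), a call lost with DESeq2 (adjusted p = 0.0921). Gaa, the gene of the lysosomal alpha-glucosidase, was higher too (0.30; edgeR, adjusted p = 0.0115), but did not pass without NC 1 (edgeR, adjusted p = 0.171). Gyg, the gene of the glycogen primer glycogenin, had a log2 fold change of 0.058 (SE 0.12; edgeR, adjusted p = 0.745).

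Pygm, the muscle phosphorylase gene, had the largest change of these tested genes. It had 3 and 10 counts in the NC libraries and 28 and 29 in the KO libraries. Both KO libraries were above both NC libraries, and the log2 fold change was 2.04 (SE 0.48; edgeR, adjusted p = 0.00144). Its size rested on the NC libraries, at 1.55 without NC 1 and 2.97 without NC 2. Its mean transcript length was 908 to 1505 bases where the longest annotated transcript has 2874, so the authors' estimates placed most of its transcripts among the short ones. Of the summed TPM of Pygb, Pygl and Pygm, Pygm took 0.982% and 1.42% in the NC libraries and 6.42% and 5.15% in the KO libraries. Of their summed counts Pygm took 0.248% and 0.630% in NC and 1.44% and 1.60% in KO. The size of its share therefore depends on the unit. Pygb took the most TPM in each library, between 93.2% and 99.0%.

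Genes of the kinases and phosphatase that act on glycogen synthase and phosphorylase split, with 2 higher, 4 lower and 7 not past the threshold of 13 tested. Phkb (0.38; edgeR, adjusted p = 0.0280) and Phkg2 (0.32; edgeR, adjusted p = 0.0433), which encode subunits of phosphorylase kinase, were higher. These 2 calls were lost under 7 and 8 of the 14 alternatives. Ppp1ca, a catalytic subunit gene of protein phosphatase 1, fell from a mean CPM of 626.3 ± 26.5 to 442.6 ± 29.0 (n = 2 in each group, SD), which is -0.50 on the log2 scale (SE 0.09; edgeR, adjusted p = 0.000135). Ppp1r3c, whose product brings that phosphatase to glycogen, fell from a mean CPM of 42.01 ± 0.18 to 30.3 ± 5.72 (n = 2 in each group, SD), which is -0.47 on the log2 scale (SE 0.12; edgeR, adjusted p = 0.00262), and without KO 1 it was -0.29 (edgeR, adjusted p = 0.0748). Gsk3a, a glycogen synthase kinase gene, also fell (-0.36; edgeR, adjusted p = 0.00256).

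Another catalytic subunit gene, Ppp1cb, passed as lower by counts (-0.25; edgeR, adjusted p = 0.0418) and had the opposite sign on the TPM scale (0.14; limma, adjusted p = 0.431 and 0.433 with the filter). Its mean transcript length was 2733 and 2739 bases in NC and 2189 and 2223 in KO, lower in both KO libraries. Its direction depends on the unit. The call by counts was also lost with upper-quartile normalization (edgeR, adjusted p = 0.0688) and with DESeq2 (adjusted p = 0.129). Of the 14 alternatives 5 kept it.

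The transcription factors and hormone receptors of the gluconeogenic programme had 5 higher, 3 lower and 6 not past the threshold of 14 tested. Hnf4a, a hepatocyte nuclear receptor gene, had 2464 and 3143 counts with wild type and 1535 and 1433 with knockout, a log2 fold change of -0.995 (edgeR, adjusted p = 4.27e-09). The coactivator gene Ppargc1a (-0.85; edgeR, adjusted p = 0.00106) was also lower. On the TPM scale the log2 fold change of Ppargc1a was -0.32 with a pseudocount of 1 (limma, adjusted p = 0.187). The higher genes were Irs2 (0.78; edgeR, adjusted p = 1.20e-06), an insulin receptor substrate, the kinase gene Sik1 (0.58; edgeR, adjusted p = 5.33e-05), Cebpb (0.57; edgeR, adjusted p = 0.000103), Foxo3 (0.53; edgeR, adjusted p = 5.31e-05) and Foxo1 (0.34; edgeR, adjusted p = 0.0381). Foxo1 lost its call under 7 of the 14 alternatives. The glucagon receptor gene Gcgr had 2 counts in KO 2 and 0 elsewhere.

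Of the 7 genes that use UDP-glucose or handle galactose, each of which was tested, 1 was higher and 2 were lower. Ugcg, the glucosylceramide synthase gene, fell (-0.44; edgeR, adjusted p = 0.00139). Ugdh, whose enzyme turns UDP-glucose into UDP-glucuronate, fell (-0.26; edgeR, adjusted p = 0.0217), a call lost under 7 of the 14 alternatives. Uggt2, a glycoprotein glucosyltransferase gene, had 14 and 19 counts with wild type and 46 and 43 with knockout, and rose (1.35; edgeR, adjusted p = 0.00327), while the call was lost with DESeq2 (adjusted p = 0.0702) and in the fits on TPM (limma, highest adjusted p = 0.135). The calls of Gaa, Ppp1r3c, Gsk3a and Ugcg were also lost in the fits on TPM. Exons of Pck2, Pgm1, Phkg2, Gsk3a, Ppp1ca, Ppp1cb, Foxo1, Cebpb, Irs2, Ugdh, Uggt2 and Acvr2a overlap those of other genes. The strand setting of the counting was not given, so their counts may include reads of those neighbours. The same limit holds for Gys1 with Ruvbl2 and for Ugp2 with Gm12043.

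**Figure D4:**
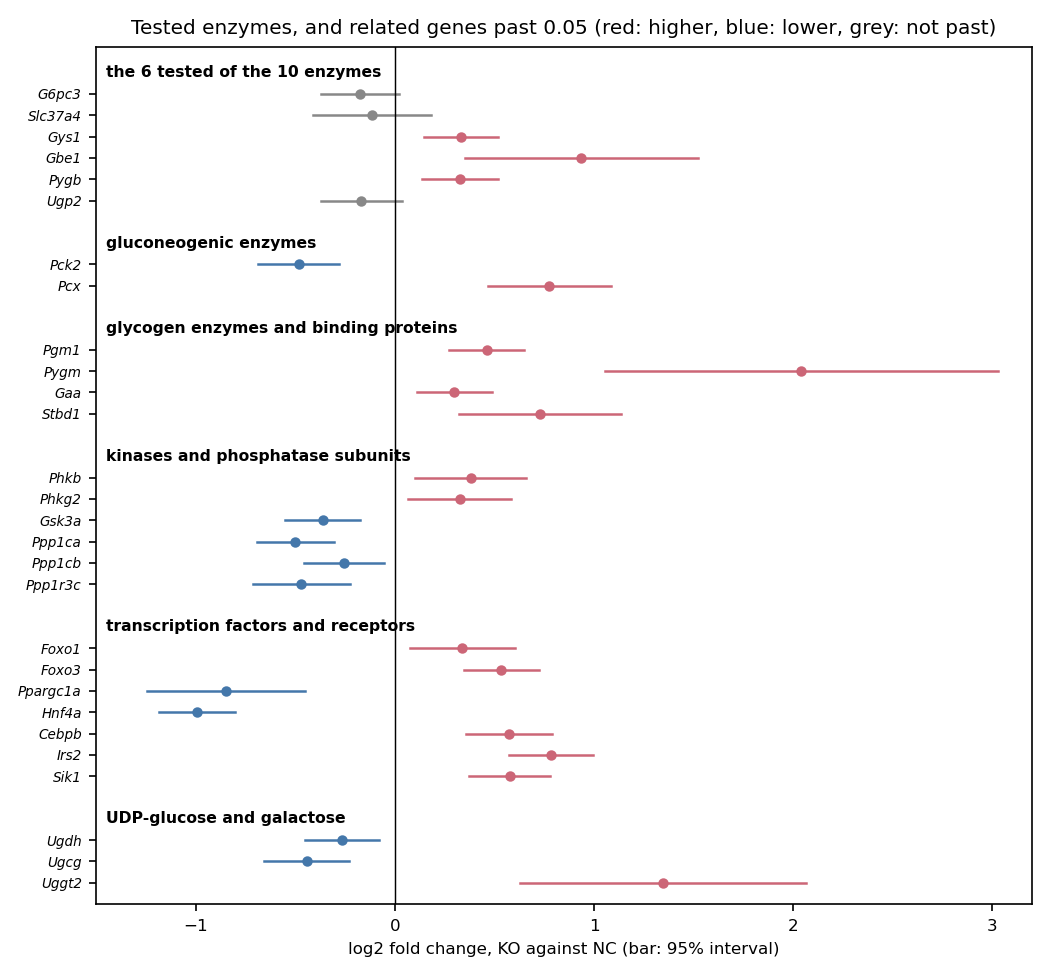
Log2 fold change, KO against NC, with 95% intervals for the 6 tested genes at the top and, below, for 22 of the 24 genes of the 5 lists that passed 0.05, with red for higher, blue for lower and grey for the genes at the top that did not pass. Pygm, at 2.04, has the largest value and a wide interval, and Hnf4a, at -0.995, the lowest.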

How the data were processed

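The authors' expected counts, deposited 1 file per sample, are estimated reads per gene and are not normalized, per the file headers, whose columns are those of RSEM. Values of TPM and FPKM, scaled by the authors for transcript length, stand beside them per the file headers. The submitters' processing notes name FastQC, STAR, RSEM, DESeq2, GRCm38 and mm10; versions, annotation and strand setting were not given in the sources used here. The library kit was directional, per the labels' protocols.

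Counts were rounded, filtered with filterByExpr and compared with edgeR 4.0.16 in R 4.3.3. The quasi-likelihood test used TMM scaling and group as the only term, over 12510 genes, two-sided, with a threshold of 0.05. The same fit was run on simulated counts that had an equal spread for all genes and independent replicates. That run does not cover genes of wider spread or samples that share a culture. CPM use TMM-scaled totals. limma 3.58.1 and DESeq2 1.42.0 served as alternatives. Positions come from GENCODE M21 (GRCm38), which matched 54723 of 54838 gene IDs. Blastn 2.17.0 sought matches of at least 100 bases at 97% identity between transcripts of the 10 genes and other genes; Ruvbl2 was found for Gys1 and none for the others. NC and KO replicate pairs differed by more than sampling noise (chi-square per degree of freedom 6.88 and 9.44).

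All 10 genes are named, with Acvr2a, the genes of 5 related lists past 0.05, and Pck1, Pck2, Pcx, Gyg and Ppp1r3c. A few genes of the lists are not reported here, though the counts include them. The genes and lists were chosen with earlier results of these data known. Other genes are named after their values were seen.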

Additional observations from a re-analysis of the deposited data

How the results depend on the processing

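All 14 alternatives kept the direction of Gys1, Gbe1, Pygb, G6pc3 and Ugp2. The 3 calls among the 10 genes became 0 in each limma fit on TPM (with Gys1 and Pygb at an unadjusted p under 0.05 in all 3, and Gbe1 in the 2 filtered fits), 2 with DESeq2, and 1 to 4 when each replicate was left out, 1 without NC replicate 1. The calls among the 56 related genes, 24 as reported, became 11, 11 and 0 in the TPM fits with pseudocount 1, with pseudocount 0.1 and without a filter, the last with 21 at an unadjusted p under 0.05, and were between 18 and 22 with a replicate left out. Over all genes, 4741 calls became 2868 with DESeq2 and 2158, 2099 and 0 in these TPM fits, the last with 4506 at an unadjusted p under 0.05; 68.0% were higher in the filtered TPM fits against 51.9%. The cause was not tested. The sign reversed for Ppp1cb in the TPM fits (0.14, 0.14 and 0.14), for Slc37a4 without KO replicate 2 (0.034) and for Gyg without KO replicate 2 (-0.060). With each replicate left out, Slc37a4 ran from -0.29 to 0.034 and Gyg from -0.060 to 0.16. Of 434 single-gene values under alternatives, 338 kept direction and side of the threshold, 90 lost a call, 1 gained one and 5 reversed. Every gene called as reported had to lose its call in the unfiltered TPM fit, which passed 0 genes. These counts, and the counts of alternatives given for single genes, include that fit. The share of Pygb in the sum of Pygb and Pygl moved by less than the spread between replicates when taken from FPKM or counts. The pair shares of Gys1 and G6pc3 could not move, since Gys2 and G6pc had no count. The share of Pygm beside Pygb and Pygl did depend on the unit, with a KO mean of 5.78% of TPM and 1.52% of counts. With the replicate block, the replicate number from the titles as a term, 3 of the 10 genes, 24 related genes and 5006 genes in all passed; the numbers are only shared labels, and the differences between replicates correlated at -0.012 between the groups across genes, which are not independent. Counts of 22 to 76 limit Gbe1, and counts under 10 limit Pygl.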
